A study of Mus musculus with 4 samples.

Results

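The transcriptional response of MC38 cells to IFN-γ under normoxic conditions was read from 1 pair of libraries, the IFN-γ library against the untreated control library, across all 27179 genes of the deposited table. MC38 is a wild-type mouse colon carcinoma cell line. IFN-γ was given at 5 ng/mL for 24 h, the dose and time stated for most experiments of the study, and normoxic cells were kept at 20% oxygen, hypoxic cells at 1.5%. A second pair, control and IFN-γ under hypoxic conditions, shares no library with the first and is set beside it here. Each of the 4 conditions was 1 library from 1 culture of 1 cell line, so no difference below has a replicate check, the normoxic difference taken alone could not be tested and each ratio compares 2 libraries.

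The normoxic libraries held 34302971 counts (control) and 34537939 counts (IFN-γ), and their TMM scaling factors were 1.008 and 0.992. Of the 27179 genes, 9459 had no count in either library and 13377 had at least 20 counts over both libraries and entered the comparison. A gene with few counts in 1 library could enter only through the other. Tallies of raised members among those that passed are therefore in part a product of this filter. A gene was called raised or lowered when its scaled log2 ratio, with 0.5 counts added, was at least 1 in size and its exact 95% counting interval lay on the same side of 0. These intervals cover counting error only. Low counts were far more often even than odd (66.2% of values from 1 to 10 in the control library and 66.3% in the IFN-γ library were even, against 49.8% and 50.6% of values above 1000), so a count may not be an independent fragment and the intervals may be too narrow. Calls were therefore also made with every count divided by 2 in the interval, an alternative chosen after the data had been seen.

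The label of colon cancer cells was set against marker genes. Of 12 markers of colon epithelium, 7 had at most 3 counts in both normoxic libraries, among them the epithelial cadherin Cdh1, the intestinal transcription factor Cdx2 and the keratin Krt18, all at 0, and Epcam, at 2 and 0. Krt8 counts were 90 (control) and 56 (IFN-γ). All 10 mesenchymal markers passed the filter, with the intermediate filament Vim at 80440 and 74838 counts, and none was called. The cells are therefore called here by the name of the line. Of 12 leukocyte markers, 8 had at most 3 counts in both libraries, and the list summed to 99 counts in the control library, most of them from the lysozyme gene Lyz2 with 69 counts there and 77 with IFN-γ.

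IFN-γ binds a receptor made of Ifngr1 and Ifngr2, and the kinases Jak1 and Jak2 bound to it phosphorylate STAT proteins, which move to the nucleus and bind GAS elements in promoters. The first genes to be transcribed include transcription factors of the IRF family, which bind a second element, the ISRE, in later genes. The response is known for genes that restrain intracellular pathogens, that load peptides on MHC class I for T cells, and that feed back on the T cell, such as the PD-L1 gene Cd274. Most cell types with the receptor can respond, tumour cells included.

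Of the 15 raised genes, among those averaging 50 counts or more, whose intervals lay farthest from 0, 12 encode GTPases that act on the membranes around intracellular pathogens, the immunity-related GTPases (IRGs) and the guanylate-binding proteins (GBPs), and the others were Ido1, BC023105 and Batf2. The promoter stretches below are shown because they hold the elements named above in front of some of these genes and others of their families. They are from the RefSeq promoter table (GRCm38.p6, the assembly that mm10 names), read 5′ to 3′ on the strand of the gene and lying before the start that this table gives, which for Gbp3 is downstream of the gene start used elsewhere in the text. Capitals mark matches to the GAS motif TTCNNNGAA or to the ISRE core, which is GAAA, any 2 bases and GAAA again, on either strand. In the first 5 stretches, the capitals first show the GAS match and then the ISRE core, whose first base lies 11 bases after that of the GAS match.
Igtp, chr11:58199499-58199543, plus strand: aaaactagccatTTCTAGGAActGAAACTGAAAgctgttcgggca
Irgm2, chr11:58214890-58214934, plus strand: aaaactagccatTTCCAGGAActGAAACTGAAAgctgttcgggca
Tgtp1, chr11:48992302-48992346, minus strand: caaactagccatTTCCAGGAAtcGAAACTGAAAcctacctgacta
Tgtp2, chr11:49064261-49064305, minus strand: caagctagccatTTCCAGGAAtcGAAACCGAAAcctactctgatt
Gm12185, chr11:48927236-48927280, minus strand: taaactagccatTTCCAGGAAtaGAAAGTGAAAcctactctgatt
Gm12250, chr11:58183740-58183818, plus strand: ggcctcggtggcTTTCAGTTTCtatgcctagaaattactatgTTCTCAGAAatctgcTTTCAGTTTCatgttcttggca
Irgm1, chr11:48871423-48871462, minus strand: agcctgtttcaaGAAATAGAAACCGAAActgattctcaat

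The next stretches stand before a pair of GBP genes, the transcription factor Irf1, the signalling inhibitor Socs1 and the chemokine Cxcl10. Gbp3 and Socs1, like Irgm1 above, hold a pair of overlapping ISRE core matches, printed as 1 run of capitals.
Gbp2, chr3:142620592-142620625, plus strand: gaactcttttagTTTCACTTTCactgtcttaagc
Gbp3, chr3:142559987-142560026, plus strand: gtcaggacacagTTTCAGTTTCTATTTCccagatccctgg
Irf1, chr11:53769912-53769944, plus strand: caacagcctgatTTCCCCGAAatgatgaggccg
Socs1, chr16:10785592-10785631, minus strand: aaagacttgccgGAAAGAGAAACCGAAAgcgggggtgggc
Cxcl10, chr5:92349081-92349114, minus strand: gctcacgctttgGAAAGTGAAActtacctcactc

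**Figure D1:**
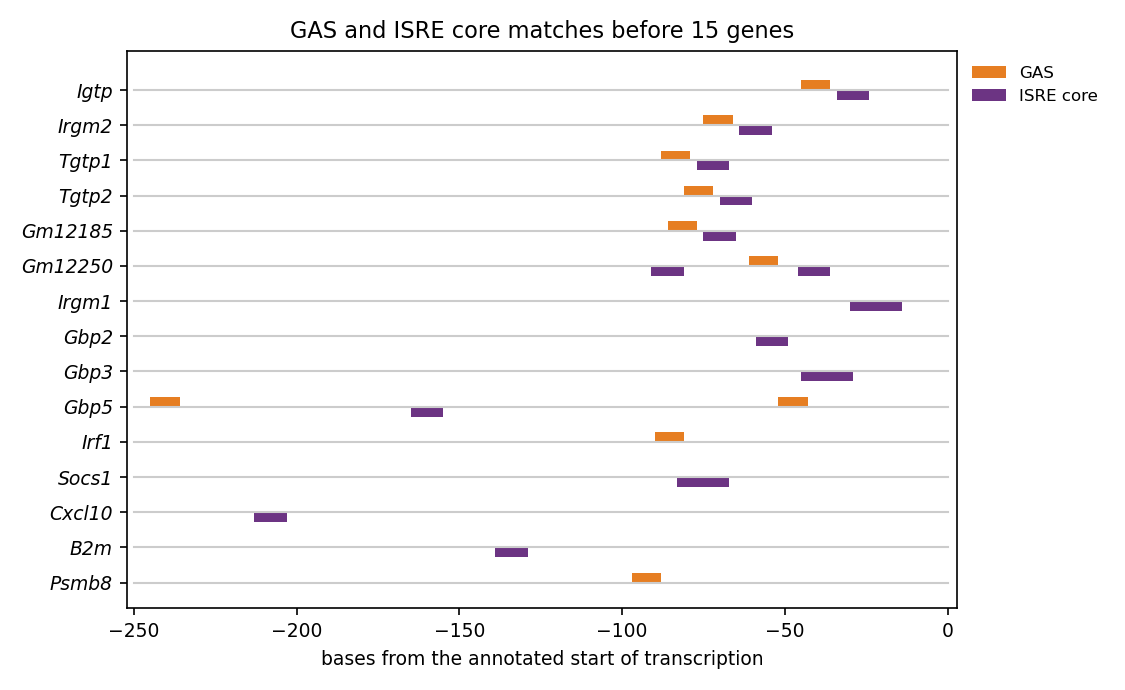
Each line is the 250 bases before the start of 1 gene in the promoter table, with that start at 0 on the horizontal axis (bases). Orange bars are GAS matches and purple bars are ISRE core matches on either strand, overlapping matches appear as 1 bar, and in Igtp, Irgm2, Tgtp1, Tgtp2 and Gm12185 the GAS match starts 11 bases before the ISRE core.

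Across the 250 bases before the start, the ISRE core was found in 20% of the 215 raised genes with a promoter entry, in none of 74 lowered genes and in 2.82% of 9882 genes called neither way. The GAS motif was found in 13%, 6.76% and 7.12% of these groups, and in 8.13% of all 27025 genes with an entry, where the ISRE core was in 3.46%. Among genes raised at least 8-fold, 12 of 31 held the ISRE core and 9 held the GAS motif. These include members of the IRG and GBP lists, in which 7 of 8 and 5 of 5 genes with an entry held the ISRE core. The GAS motif was in 6 of the 8 and 2 of the 5. Genes of each family are related in sequence, so neither the 31 nor the 215 genes are independent. A GAS match that starts 11 bases before an ISRE core, as read on the strand of the gene, was found in 5 of the 27025 genes, and these were the 5 IRG genes printed first. That spacing was noticed in these promoters and then counted, and IRG genes are related in sequence, so the 5 are not independent. No match to either motif was found in the 250 bases before Tap1, Psmb9, Cd274, H2-K1, Psmb10, Cxcl9 or Ifi47. These matches describe letters in a window and are not measured binding sites.

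In all, 321 of 13377 genes were called raised (2.4%) and 111 lowered (0.83%). With counts divided by 2 in the interval, 251 of the raised and 49 of the lowered genes kept their call. The raised genes had larger ratios: 112 of them rose at least 4-fold, 56 at least 8-fold and 17 at least 32-fold, against 9 lowered genes at 4-fold and 1 at 8-fold. They also had more counts over both libraries, with a median of 91 against 40 for the lowered genes. These sums include the IFN-γ counts whose rise made the raised calls, so they are in part a product of the call. In the control, 181 of the 321 raised genes and 84 of the 111 lowered genes had 4 to 49 counts. Among the 10522 genes with at least 100 counts in each library, 93 were 2-fold higher and 1, the aldolase gene Aldoc, was 2-fold lower. The median log2 ratio over all 13377 genes was 0.00093, and the central 95% of the well-counted genes lay between -0.32 and 0.46.

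**Figure D2:**
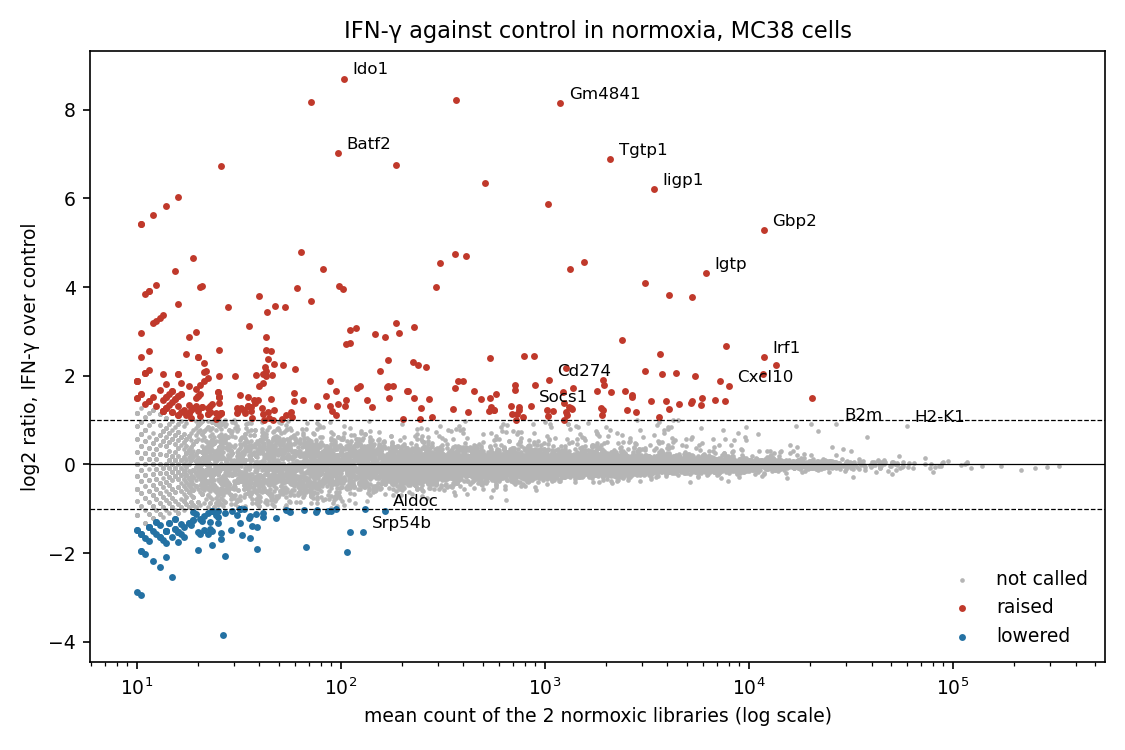
Each point is 1 gene with at least 20 counts over both normoxic libraries, with the mean count on a log axis and the log2 ratio of IFN-γ over control on the vertical axis, and dashed lines at 2-fold. Raised genes (red) run up to Ido1, fitted at 8.70 with 0.5 counts added, and lie over a wide range of counts but not at the highest. Lowered genes (blue) lie mostly at low counts, where the spread of uncalled genes (grey) is also widest.

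The largest gains in reads were mostly those of antigen presentation genes with high counts in the control. The raised genes took 0.340% of the control counts and 1.32% of the IFN-γ counts, and the lowered genes 0.0140% and 0.00535%. Among the genes reported here, the 10 largest rises in CPM, the count scaled to library size and not corrected for gene length, were those of H2-K1, Gbp2, Tapbp, Psmb10, Irf1, B2m, H2-D1, Tap1, Rnf213 and Irgm1, of which 6 act in antigen presentation. H2-K1, which encodes a classical MHC class I heavy chain, had 1226 CPM in the control and 2229 CPM with IFN-γ. Its log2 ratio of 0.86 (interval 0.85 to 0.88) was below the 2-fold limit, as were those of B2m, H2-D1 and Rnf213, so the call by fold left out 4 of these 10. The 10 largest falls in CPM were those of Rplp0, Eef1a1, COX1, Hsp90ab1, CYTB, Fth1, Actb, Rps27a, Vim and Lgals1, abundant genes of translation, respiration, protein folding, iron storage and the cytoskeleton and, with Lgals1, a lectin. None was called, and their log2 ratios lay between -0.28 (Rps27a) and -0.05 (COX1).

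The IRG list held 12 genes, and all 12 passed the filter and rose, with a median log2 ratio of 5.26 and a range from 2.67 to 8.22. Some members, such as Gm12185 (2 control counts), passed only through their IFN-γ counts, so the tally and median partly follow from the filter. Irgm1, a regulator of the other IRG proteins, rose from 2131 to 13415 counts (log2 ratio 2.67, interval 2.60 to 2.73). Igtp, also known as Irgm3, rose from 598 to 11773 counts (4.31, 4.19 to 4.43), and Irgm2, the third member of this regulatory group, from 543 to 7594 (3.82, 3.69 to 3.95). These 3 had the most control counts of the list and its smallest ratios.
The effector members rose from few counts. Iigp1 (Irga6), which loads onto vacuoles of intracellular parasites, rose from 92 to 6755 counts (6.20, 5.92 to 6.53). Gm4841, with 20.4% of its words shared, rose from 8 to 2379 counts (8.14, 7.25 to 9.44), Gm12250 (Irgb10) from 12 to 1012 (6.35, 5.6 to 7.37) and Ifi47 (Irgd) from 128 to 2992 (4.56, 4.31 to 4.83). Tgtp1 and Tgtp2, a pair of near-identical copies, rose from 35 to 4164 and from 35 to 2054 counts, but share 84.4% and 90.5% of their words (all runs of 31 bases in their transcripts) with other genes, so the split of reads between them is uncertain. Gm12185, with 28.7% shared words, had 2 control and 736 IFN-γ counts, a ratio of 297 with a counting interval from 102 to 3074. In the hypoxic pair all 12 were raised too, with Irgm1 at 2.60, Igtp at 4.20, Iigp1 at 6.65 and Gm4841 at 8.32. BC023105, outside the list but at the end of the chromosome 18 IRG cluster, had no count in the control and 144 with IFN-γ. That is at least 48.5-fold higher against a floor of 3 counts, and it shares 29.3% of its words with other genes.

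Of 11 GBP genes, 9 passed the filter and all 9 rose, with a median log2 ratio of 4.09. Gbp4, Gbp8 and Gbp10, with 3, 4 and 1 control counts, passed only through their IFN-γ counts. The tally and the median therefore partly follow from the filter. The proteins coat vacuoles and bacteria and open them to the cytosol. Gbp2 rose from 597 to 23153 counts (5.29, 5.17 to 5.41), a gain from 17.3 to 676 CPM. Gbp3 rose from 727 to 9862 counts (3.77, 3.67 to 3.89), Gbp7 from 348 to 5872 (4.09, 3.93 to 4.25) and Gbp5 from 30 to 790 (4.71, 4.21 to 5.31). All 4 lie in 1 cluster on chromosome 3. The chromosome 5 cluster started lower: Gbp9 rose from 37 to 337 counts (3.18), Gbp6 from 26 to 701 (4.74, with 74.2% of its words shared) and Gbp4 from 3 to 372, a ratio of 107 with a counting interval from 42.5 to 610. Gbp10 and Gbp8 rose from 1 to 21 and from 4 to 35 counts, with 89.8% and 31.1% of their words shared. Gbp2b (0 and 5 counts) and Gbp11 (2 and 7) stayed below the filter. In the hypoxic pair the same 9 were raised, with Gbp2 at 5.14 and Gbp5 at 5.83.

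**Figure D3:**
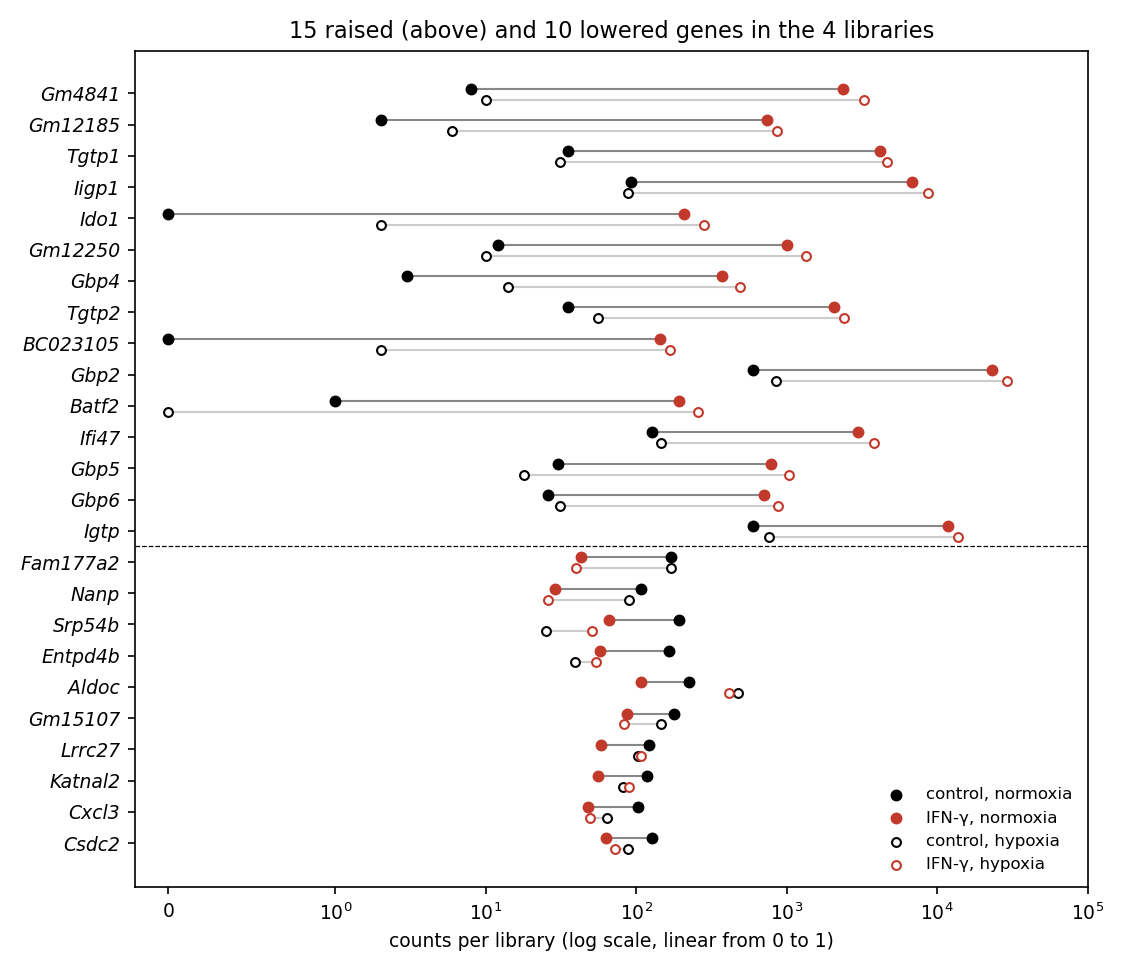
Counts per library, on a log axis that is linear from 0 to 1, for the 15 raised and 10 lowered genes, of those averaging 50 counts or more, whose intervals lie farthest from 0. Filled points are the normoxic and open points the hypoxic libraries, control in black and IFN-γ in red, and the hypoxic lines run beside the normoxic ones for the raised genes but are short or turned for Srp54b, Entpd4b, Aldoc, Lrrc27, Katnal2, Cxcl3 and Csdc2.

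Upstream of these effectors, the genes of the receptor and its kinases differed little. Of 13 that passed on the list of receptors, JAKs and STATs, 1 was raised and the median was 0.03. Ifngr1, the ligand-binding chain, had 1229 control and 1018 IFN-γ counts (log2 ratio -0.26, interval -0.38 to -0.14). Ifngr2 had 542 and 496 counts (-0.11), Jak1 5799 and 5814 (0.02) and Jak2 1138 and 1591 (0.50, 0.39 to 0.61). Only Jak2 of these 4 had an interval above 0. Stat2, a partner of Irf9 in the complex that binds the ISRE, rose from 2852 to 7676 counts (1.44, 1.38 to 1.5). Stat3 had 2400 and 3644 counts (0.62, 0.54 to 0.69), below the 2-fold limit, and 0.99 in the hypoxic pair.

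Of 16 transcription factors that passed, 10 rose and none fell (median 1.25). Irf1, the early factor of the response, rose from 3770 to 20118 counts (2.43, 2.38 to 2.48), and was at 2.46 in the hypoxic pair. Batf2, an AP-1 family member, had 1 count in the control and 193 with IFN-γ, a ratio of 130 with an interval from 34.6 to 7737. The class II transactivator Ciita rose from 7 to 116 counts (3.97, 2.98 to 5.41) and Nlrc5, its counterpart for class I genes, from 1112 to 6229 (2.5, 2.41 to 2.59). Irf7, of the antiviral response, rose from 339 to 788 counts (1.23, 1.05 to 1.42). Irf9 (0.78) and Irf2 (0.60) were higher with intervals above 0 but under the limit. Irf8 had 0 and 2 counts and Irf4 had none. Batf rose from 8 to 22 counts, a call that was lost with counts divided by 2. The chromatin readers Sp110, Sp140 and Sp100 rose to log2 ratios of 2.41, 1.89 and 1.28, the first 2 with more than 20% of their words shared.

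Among 10 genes that restrain the signal, 1 rose and the median was 0.0083. Socs1, which inhibits JAK kinases, rose from 492 to 1220 counts (1.32, 1.17 to 1.48). Usp18, which removes ISG15 from proteins, had 740 and 1374 counts (0.91), and Socs3 had 271 and 465 (0.79, 0.57 to 1.01). The phosphatase genes Ptpn1, Ptpn2 and Ptpn11 lay between 0.00 and 0.06.

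Of 13 genes that cut and load peptides, 10 rose and the median was 1.89. The immunoproteasome subunits that replace constitutive ones in the catalytic core were Psmb9, from 609 to 4205 counts (2.80, 2.68 to 2.93), Psmb10, from 4783 to 22410 (2.24, 2.20 to 2.29), and Psmb8, from 2214 to 8723 (1.99, 1.92 to 2.06). The peptide transporter genes Tap1 and Tap2 rose from 4672 to 18913 (2.03, 1.99 to 2.08) and from 1478 to 6005 counts (2.04, 1.95 to 2.12). The proteasome activators Psme1 (1.46) and Psme2 (1.89), the loading factors Tapbp (1.51) and Tapbpl (1.91) and the trimming peptidase Erap1 (1.37) also rose, Psme2 and Tapbp with more than 20% of their words shared. The general chaperones of the endoplasmic reticulum on the list did not pass the limit: Calr was at 0.10, Canx at 0.06 and Pdia3 at 0.12.
The constitutive proteasome stood apart from its inducible subunits. None of its 14 genes was called, and their log2 ratios ran from 0.02 (Psmb2) to 0.39 (Psma5) with a median of 0.12, all on the same side of 0. The 3 subunits that the inducible ones replace, Psmb5, Psmb6 and Psmb7, were at 0.04, 0.12 and 0.09. Psmb5 and Psma5 share 71.7% and 61.0% of their words with other genes.

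Of 9 genes on the MHC class I list that passed, 5 rose (median 1.22). They were nonclassical members: H2-M3 from 620 to 1431 counts (1.22, 1.08 to 1.36), H2-T22 from 2435 to 5704 (1.24), H2-T10 from 394 to 980 (1.33), H2-Q4 from 1816 to 4854 (1.43) and H2-Q1 from 6 to 18. All but H2-M3 share more than 20% of their words with other genes, H2-T10 is annotated as a transcribed pseudogene, and the H2-Q1 call was lost with counts divided by 2. The classical heavy chains and the light chain had more control counts and smaller ratios, but H2-K1 and H2-D1 also share 22.8% and 26.9% of their words. H2-K1 had 42418 and 76364 counts (0.86), H2-D1 30206 and 45753 (0.61, 0.59 to 0.63), and B2m, the light chain, 18875 and 35010 (0.91, 0.88 to 0.93), all with intervals above 0 and under the limit. In the hypoxic pair these were 0.81, 0.73 and 0.93. The nonclassical gene H2-T3, which is not on the list, rose from 2 to 25 counts.

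Class II genes stayed at low counts. Of 7 that passed, 2 rose, 1 fell and the median was 0.32. H2-Aa rose from 4 to 52 counts (3.56, 2.27 to 5.64), while its partner chain H2-Ab1 had 2 and 4 counts and was below the filter. The invariant chain gene Cd74 had 195 and 241 counts (0.32, 0.04 to 0.60). The protease Ctss rose from 6 to 26 counts (2.04). H2-Oa fell from 32 to 15 counts, a call that was lost with counts divided by 2, and had 27 and 31 counts in the hypoxic pair. In bulk RNA a change in all cells and a change in a few of them cannot be told apart. Of the 12 leukocyte markers, 6 were at 0 in both libraries and 3 passed the filter, with 0 called raised. The 12 summed to 99 counts in the control and 104 with IFN-γ.

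Of 17 genes on the chemokine and cytokine list that passed, 8 rose and none fell (median 0.91), while the chemokine gene Cxcl3, which is not on the list, fell and is given with the lowered genes. The genes of the 3 ligands of Cxcr3, a chemokine receptor of T cells, all rose: Cxcl10 from 3657 to 12345 counts (1.77, 1.72 to 1.82), Cxcl11 from 24 to 198 (3.03, 2.44 to 3.73, annotated as a transcribed pseudogene, with 42.2% of its words shared) and Cxcl9 from 8 to 99 (3.56, 2.61 to 4.89). Il15, which sustains T and NK cells, rose from 78 to 264 counts (1.77, 1.40 to 2.16). The death ligand Tnfsf10 (TRAIL) rose from 48 to 410 (3.10, 2.67 to 3.57) and Il18bp, which neutralises interleukin 18, from 103 to 325 (1.67). Ccl8 (1.77) and Lif (1.09) were the other members that rose. The monocyte attractant Ccl2 had 4719 and 5041 counts (0.11), Ccl5 had 614 and 585 (-0.06), and the neutrophil attractant Cxcl1 had 826 and 601 (-0.44, -0.60 to -0.29). Ifng itself had no count in either library, and Ifnb1 had 2 in each.

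Of 10 checkpoint genes that passed, 3 rose (median 0.39). Cd274, which encodes PD-L1, rose from 447 to 1658 counts (1.90, 1.75 to 2.06), and was at 2.29 in the hypoxic pair. Pdcd1lg2, the gene of the second PD-1 ligand, had 0 and 2 counts. Tnfrsf14, a ligand of the inhibitory receptor BTLA, rose from 29 to 194 counts (2.73, 2.19 to 3.37). Ido1, which breaks down tryptophan, had no count in the control and 207 with IFN-γ, at least 69.7-fold higher against the floor of 3 counts. Cd47, Cd276 and Lgals9 lay between 0.30 and 0.35, while the ligands of the DNAM-1 receptor, Pvr and Nectin2, were at -0.16 and -0.37, with intervals below 0.

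**Figure D4:**
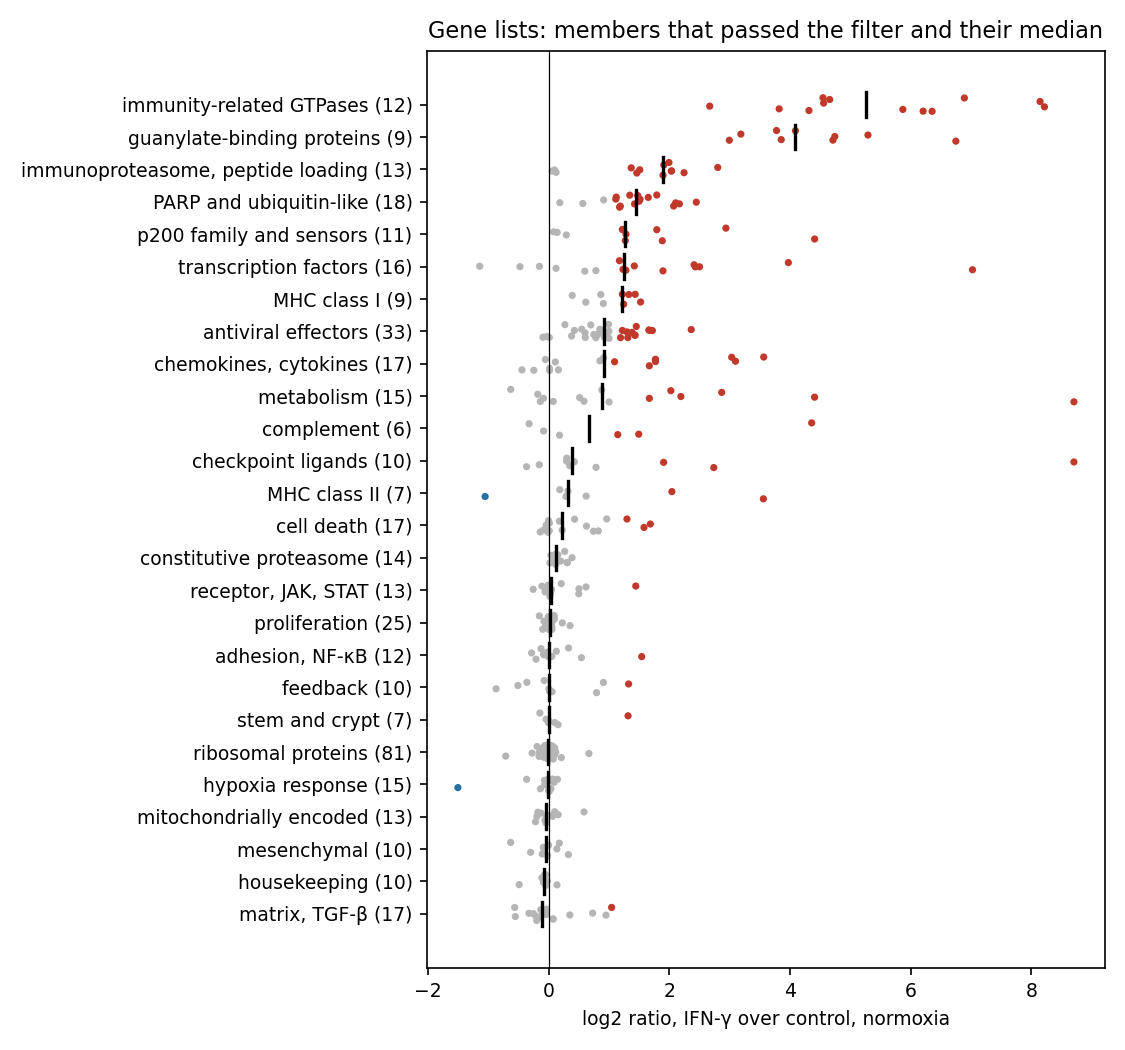
Log2 ratios of IFN-γ over control in normoxia for the members of 26 gene lists that passed the filter (their number in brackets), raised members in red, lowered in blue and others in grey, with a bar at the median. Medians run from 5.26 for the IRG list to -0.12 for the matrix and TGF-β list, and 11 of the lists have a median of at least 1.5-fold.

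The antiviral list moved less than the GTPases and more evenly. Of 33 genes that passed, 12 rose, none fell, 30 had an interval above 0 and the median was 0.92. Cmpk2 rose from 1189 to 3742 counts (1.67), Ifi44 from 873 to 2732 (1.66), Xaf1 from 646 to 2105 (1.72) and Ifit3 from 56 to 287 (2.36, with 61.8% of its words shared). Rsad2, or viperin, rose from 2929 to 7542 counts (1.38) and the ubiquitin-like modifier Isg15 from 1725 to 3897 (1.19). A set of members sat just under the limit: the 2-5A synthetase genes Oas3, Oas2, Oas1g, Oas1b and Oas1a lay between 0.85 and 0.999, Ifi35 was at 0.997 and Ifit1 at 0.97. The count of 12 therefore depends on where the limit stands. Oas1g and Oas1a share 55.05% and 68.84% of their words with other genes. Oasl1, Ifitm1 and Ifitm2 lay between -0.10 and 0.01.

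Of 18 genes of ADP-ribosylation and ubiquitin-like pathways, 15 rose and none fell (median 1.45). Uba7 and Ube2l6, the enzymes that activate and carry ISG15, rose from 247 to 1334 (2.44, 2.25 to 2.65) and from 1182 to 5028 counts (2.10, 2.01 to 2.20). Parp14 (2.07), Parp10 (1.51), Parp9 (1.5) and its partner Dtx3l (1.42) rose, as did the antibody receptor Trim21, from 466 to 2072 (2.17, 2.02 to 2.31). Rnf213, a large ubiquitin ligase, had 14130 and 26290 counts (0.91).
Of 11 DNA-sensor and p200-family genes that passed, 8 rose (median 1.27). Zbp1, a sensor of left-handed nucleic acid, rose from 120 to 2531 counts (4.41, 4.15 to 4.69), and Ifi205 from 34 to 261 (2.94). Ifi203, Ifi204, Ifi207, Ifi209, Ifi211 and Mndal rose between 1.22 and 1.88 on the log2 scale, most with shared words among these related genes. The other 3 did not pass the limit: the sensor Cgas was at 0.29, its adaptor Sting1 at 0.08 and Aim2, of the p200 family, at 0.14.

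Of 15 metabolic genes that passed, 6 rose (median 0.88). Besides Ido1, these included Ido2 from 95 to 431 counts (2.19), the nitric oxide synthase Nos2 from 40 to 292 (2.87, 2.40 to 3.40), the itaconate enzyme Acod1 from 18 to 74 (2.02) and the apolipoprotein Apol6 from 7 to 157 (4.41). Wars, a tRNA synthetase, was at 0.51 and Nampt at 0.58, both with intervals above 0.
Among cell death genes, Casp12 rose from 341 to 1086 counts (1.68) and the inflammatory caspase Casp1 from 292 to 865 (1.58). Mlkl, of necroptosis, was at 0.82, Casp4 at 0.74 and Bak1 at 0.62, while Casp8, Bax and Mcl1 lay between -0.01 and 0.01. Of 6 complement genes that passed, the protease genes C1s1 (1.49) and C1ra (1.14) rose, and C4b rose from 1 to 30 counts, all 3 with more than 20% of their words shared, and C3 had 314 and 248 counts (-0.33).

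The lists for other programmes stayed near the median of all genes. Of 12 NF-κB and adhesion genes 1 was raised, Icam1 from 8 to 24 counts, a call that was lost with counts divided by 2, and the median was 0.0095. None of 25 proliferation genes was called (median 0.02). The division marker Mki67 had 19996 and 19233 counts (-0.04, -0.07 to -0.01), Myc was at 0.05, and Top2a, at 0.35, was the farthest from 0. Of 7 stem and crypt genes that passed, Aldh1a1 rose from 20 to 50 counts, Cd44 was at 0.15, Sox2 had 1514 and 1354 counts (-0.15, -0.25 to -0.04), and Lgr5, Nanog and Olfm4 were at 0 in both libraries. Pou5f1 (Oct-4) had 0 and 1 counts.
Of 15 hypoxia response genes that passed, 14 were not called, with Ldha at -0.07, Vegfa at -0.14 and Hif1a at 0.03, and Adm fell from 21 to 7 counts, a call that was lost with counts divided by 2 (list median -0.01). The 17 matrix and TGF-β genes had a median of -0.12 and 8 intervals below 0, with Col6a1 at -0.56 and Tgfb3 at -0.55. Col5a2 was the 1 called member, raised from 12 to 25 counts, a call that was lost with counts divided by 2, and it was called lowered in the hypoxic pair. None of 81 ribosomal protein genes (median -0.0058), 13 mitochondrially encoded genes (-0.04) or 10 housekeeping genes (-0.08) was called. Of 4 endothelial markers only Cdh5 passed, and it fell from 50 to 16 counts (-1.60). In the hypoxic pair Cdh5 was at -0.23 and was not called.

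Part of the raised genes lay side by side in the genome. Of the 311 raised genes that have a position (GRCm38.p6), 106 (34.1%) had another raised gene within 100 kb, and the rest had none. With neighbours joined up to that distance, 14 clusters of at least 3 raised genes held 64 of the 311, and no such share was computed for other sets of genes. In 13 of the 14, every gene inside the span that passed the filter was raised. Genes under the filter were left out, so a silent gene that did not rise was not counted. Some members passed only through their IFN-γ counts, such as Gm5431 (2 and 19 counts) and Gbp10 (1 and 21). The full clusters are therefore in part a product of the filter. On chr11:48865245-49135387, 8 genes rose, from Irgm1 and Tgtp1 to Ifi47 and Olfr56, whose exons overlap those of Ifi47. The p200 cluster on chr1:173630859-174031755 held 7, the Trim cluster on chr7:104244448-104507853 held 7 from Trim34a to Trim30d, and the GBP cluster on chr3:142496934-142638008 held 4. In the MHC, Psmb9, Tap1, Psmb8, Tap2 and H2-Aa made up the cluster on chr17:34182030-34287823, and Cxcl9, Cxcl10 and Cxcl11 that on chr5:92321331-92363296. Between the end of Tap2 (34216321) and the start of H2-Aa (34282744) no gene passed the filter, and genes under it were not counted. Many of these neighbours are related copies, so reads may have been shared inside a cluster. Of 304 raised genes with an annotated transcript, 77 share at least 20% of their words with another gene.

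The lowered genes were fewer, lower in counts and mostly outside the lists. By the interval bound, the first were Fam177a2, Nanp, Srp54b, Entpd4b and Aldoc. Fam177a2 fell from 171 to 43 counts (-1.97, -2.50 to -1.49), and had 169 and 40 in the hypoxic pair (-2.04). Nanp, a phosphatase of sialic acid synthesis, fell from 107 to 29 (-1.85, -2.51 to -1.27), and had 90 and 26 (-1.74). These 2 differed alike in both pairs.
Srp54b, a copy of a signal recognition particle gene, fell from 193 to 66 counts (-1.53, -1.96 to -1.12), but had 25 and 51 in the hypoxic pair (1.04). Entpd4b, a copy of a Golgi nucleotidase gene, fell from 166 to 57 (-1.52), with 39 and 54 in the hypoxic pair (0.49). Aldoc, a glycolytic aldolase, fell from 223 to 107 (-1.04, -1.39 to -0.71), with 472 and 414 in the hypoxic pair (-0.16). Lrrc27 and Katnal2 fell from 122 to 58 and from 118 to 56 and had positive ratios in the hypoxic pair (0.10 and 0.15). The chemokine gene Cxcl3 fell from 103 to 48 counts (-1.08), and Gm15107 (-1.01) and Csdc2 (-1.003) completed the first 10. In the hypoxic pair these 3 were at -0.35, -0.79 and -0.26, and none was called. Nanp, Srp54b, Entpd4b and Gm15107 share between 52.1% and 100% of their words with other genes, and Fam177a2 had no GENCODE transcript to compare.

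The raised calls recurred in the hypoxic pair far more often than the lowered ones. By the same rule that pair gave 343 raised genes (2.54%) and 115 lowered genes (0.85%) of 13522. Of the 321 genes raised in normoxia, 208 were raised and 6 were called lowered in the hypoxic pair. Of the 155 with at least 100 counts over both normoxic libraries, 139 were raised there and all 155 had a positive ratio. Of the 111 lowered genes, 7 were lowered and 5 were called raised in the hypoxic pair, and 66 had a negative ratio. Among the 15 with at least 100 counts, 2 were lowered again, Fam177a2 and Nanp, and 11 had a negative ratio. Across the 10443 genes with at least 100 counts in all 4 libraries, the log2 ratios of both pairs had a Pearson correlation of 0.72 and differed with an SD of 0.19. Over the 10334 of them called in neither pair, the correlation was 0.39. That is a description across genes, which share libraries and are not replicates.

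**Figure D5:**
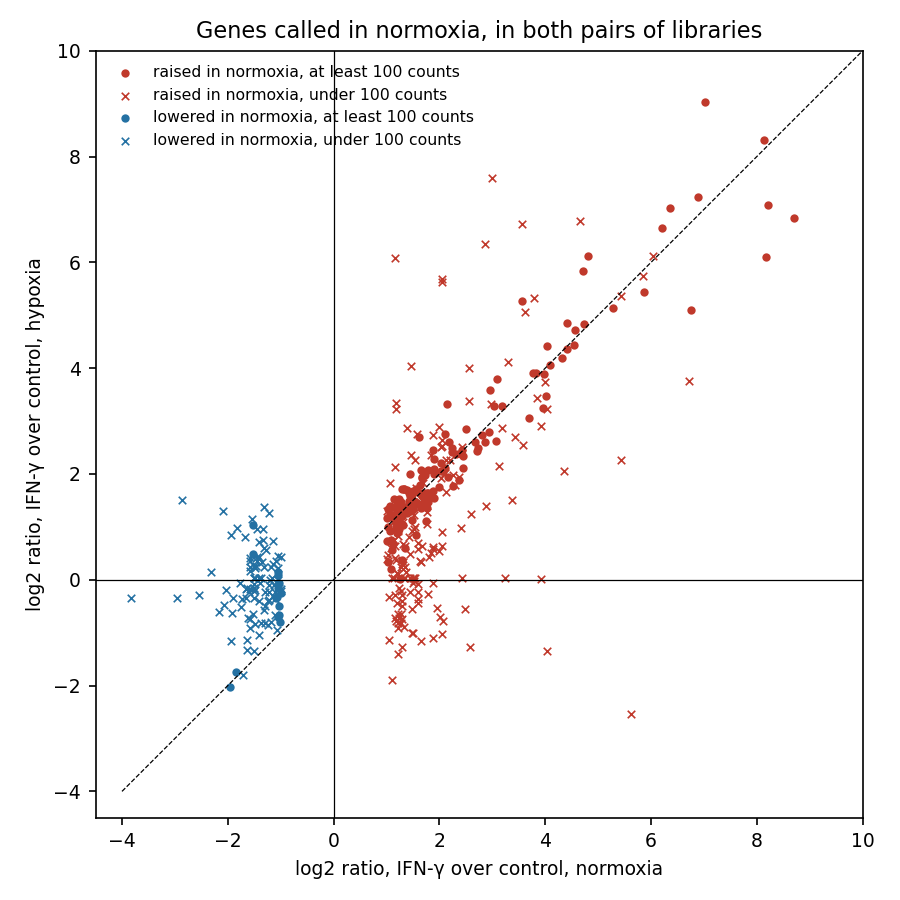
Each point is 1 gene called in normoxia, with its log2 ratio of IFN-γ over control in normoxia (horizontal) and hypoxia (vertical), circles for at least 100 counts over both normoxic libraries and crosses for fewer, and a dashed line where both are equal. Most raised circles (red) lie near the line and all lie above 0, but some lie well below the line, such as Ppp1ccb (1.26 in normoxia, 0.01 in hypoxia). Lowered genes (blue) lie on both sides of 0 on the vertical axis, with the circles of Fam177a2 and Nanp the lowest.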

How the data were processed

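Per the labels, RNA of MC38 cells was selected by poly-A (the study's text speaks of total RNA), made into strand-specific dUTP libraries and sequenced as paired 100-base reads on a DNBSEQ instrument, 1 library per condition, and the authors aligned reads with HISAT2 (version not given in the sources used here). The submitters' processing notes name featureCounts and mm10. The authors deposited raw counts per NCBI gene ID, not normalized. How pairs, strand and multi-matching reads were counted is not given in the sources used here. RefSeq (GRCm38.p6) named 25275 IDs and GENCODE vM21 named 18.

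TMM factors came from edgeR 4.0.16 in R 4.3.3, over genes with at least 20 counts in the pair. Log2 ratios used 0.5 added counts and exact conditional (Clopper-Pearson) 95% intervals. The code was run on simulated independent Poisson counts, which the interval assumes. That run leaves out the excess of even counts, so it could not show whether the intervals are too narrow here. A ratio against 0 counts is given as a bound, from a floor of 3 counts. Named genes were the 15 raised and 10 lowered genes averaging 50 counts or more whose interval lay farthest from 0, the 10 largest rises and falls in CPM, leading, absent and defining list members and genes named in the study, and some genes are not reported here. Further list members are given to show a list's range. Members and lists were chosen with earlier results of these data known. Alternatives were total counts, DESeq2 1.42.0 size factors, 5 added counts, other filters, fold limits, the whole interval past 2-fold and the hypoxic pair. Words of 31 bases were compared across GENCODE transcripts, with 20% taken as the limit for uncertain.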

Additional observations from a re-analysis of the deposited data

Results flagged for a closer look

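In 11 genes, IFN-γ and control differed in opposite directions in the normoxic and the hypoxic pair, with both ratios called. With 1 library per condition this difference was not tested. Gm7415 (0 and 24 counts in normoxia, 26 and 4 in hypoxia) had log2 ratios of 5.62 and -2.53, where the first depends on the added counts and the ratio was at least 8.08-fold against a floor of 3. Gm10147 was at 2.58 and -1.28, Gm4836 at 1.30 and -1.27, the oxysterol receptor gene Nr1h3 at 1.21 and -1.40, the gene with NCBI ID 620986 at 1.11 and -1.89, and the collagen gene Col5a2 at 1.04 and -1.13. In the other direction, Car11 was at -1.23 and 1.27, the gene with NCBI ID 402747 at -1.32 and 1.37, Srp54b at -1.53 and 1.04, the growth factor gene Mdk at -1.53 and 1.16, and the adenylate cyclase gene Adcy5 at -2.08 and 1.30. Srp54b, with 193 counts in the normoxic control, was the only one of the 11 above 60 counts in any library. The others rest on small counts. Gm7415, Gm10147 and Gm4836 share 100% of their words with other genes and Srp54b 89.9%, so the assignment of their reads is uncertain. Whether this accounts for their opposite directions was not tested. Nr1h3, Col5a2, Car11, Mdk and Adcy5 share between 0% and 3.3%. The genes with NCBI IDs 620986 and 402747 had no GENCODE transcript to compare.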

How the results depend on the processing

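Each ratio rests on 2 libraries, and the spread between cultures is not measured. No paired analysis was possible because the normoxic response taken alone has 1 library a side. A fit of IFN-γ and oxygen over all 4 libraries, which estimates an effect common to both pairs, was not run. Depth limits genes below about 20 counts, and shared reads limit related copies. The 321 raised and 111 lowered genes became 521 and 253 at a fold limit of 1.5, 112 and 9 at 4, and 178 and 10 when the whole interval had to lie past 2-fold. The lowered count was also 70 with 5 counts added, 250 without a filter, 62 with at least 10 counts in each library and 49 with counts divided by 2 (chosen after seeing the data), each more than 1.5 times from 111, while the raised count stayed within 1.5 times of 321 under these 4. Under total counts 310 raised and 115 lowered genes were called, and under DESeq2 size factors 321 and 111. Of the list members and the first 10 lowered genes, Entpd4b (0.49), H2-Oa (0.23), Katnal2 (0.15), Lrrc27 (0.10) and Srp54b (1.04) fell in normoxia but had a positive ratio in the hypoxic pair, and Col5a2 rose in normoxia but was at -1.13 there. Of all 111 lowered genes, 66 had a negative ratio there. The cause was not tested.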

Other observations

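Of the 321 raised genes, 212 were on none of the lists, and the following were chosen after their values were seen. Mpeg1, a pore-forming protein of phagocytes, rose from 4 to 124 counts (log2 ratio 4.80, interval 3.58 to 6.87). Il15ra, the chain that presents interleukin 15, rose from 277 to 1503 counts (2.45, 2.27 to 2.64), and its ligand gene Il15 rose as given above. Ly6a, also known as Sca-1, rose from 44 to 341 counts (2.95), with 31.9% of its words shared. Tlr3, a sensor of double-stranded RNA, rose from 454 to 1049 (1.22) and Nod1, a sensor of bacterial peptides, from 73 to 198 (1.45). Serpinb9, an inhibitor of granzyme B, rose from 324 to 739 (1.20). In the hypoxic pair the log2 ratios were 6.12 for Mpeg1, 2.35 for Il15ra, 3.58 for Ly6a, 1.09 for Tlr3, 2.01 for Nod1 and 1.5 for Serpinb9. Des, the muscle intermediate filament gene, fell from 62 to 16 counts (-1.91) and was at -0.35 in the hypoxic pair.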
